A study of Homo sapiens with 24 samples.

Results

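The genes of polyamine metabolism were followed by their symbols in every library of LNCaP cells, an androgen-responsive human prostate cancer line grown from a lymph node metastasis. The 10 genes were ODC1, AMD1, SRM, SMS, SAT1, SMOX, PAOX, AZIN1, OAZ1 and OAZ2, out of 22227 genes listed in the ligand tables and 23028 in the siRNA tables. All 10 were present in both sets of tables and passed the filters on low values. In the ligand experiment, cells received vehicle, 10 nM dihydrotestosterone (DHT, an androgen) for 4 or 24 h, or 10 μM enzalutamide (an antagonist of the androgen receptor) for 4 or 24 h, with 2 libraries per condition. In the siRNA experiment, cells carried a non-targeting siRNA pool (siControl) or a pool against the transcription factor GATA2 (siGATA2) and received either vehicle or enzalutamide (25 μM) for 24 h, from 72 h after transfection, with 3 libraries per condition. All cells were kept in phenol red-free medium with charcoal-stripped serum, which is low in steroids, before treatment. The time of the vehicle samples in the ligand experiment is not given in the sources used here. Poly(A) RNA was sequenced from 1 cell line, so the spread is that between libraries of this line.

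Polyamines are small, positively charged amines that bind nucleic acids and are needed for translation and growth. Ornithine decarboxylase (ODC1) makes putrescine, AMD1 makes the aminopropyl donor, and the synthases SRM and SMS add aminopropyl groups to give spermidine and then spermine. SAT1 acetylates spermidine and spermine so that they can be exported or oxidised by PAOX, while SMOX oxidises spermine directly. The antizymes OAZ1 and OAZ2 bind ODC1 protein and lead it to the proteasome, and AZIN1, an inactive relative of ODC1, binds antizyme in its place. The prostate makes and secretes large amounts of polyamines, and much of the control of these proteins acts on translation and protein turnover, which RNA levels do not show.

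Labels were checked by GATA2 in the siRNA libraries with vehicle and by KLK3 with vehicle and 24 h of DHT, and these libraries matched. The values below do not cover the other groups, and GATA2 RNA was lowered by the siRNA but not lost. GATA2 lay between 77.0 and 86.1 RPKM (reads per kilobase, scaled to the mapped reads) in siControl cells with vehicle and between 46.6 and 54.3 in siGATA2 cells with vehicle, a log2 difference of -0.68 ± 0.06 (SE). The androgen-induced gene KLK3 was at 254 to 259 CPM (counts scaled to the library total) with vehicle and at 2095 to 2139 CPM after 24 h of DHT. All 10 markers of prostate luminal epithelium fixed for the check were detected. TP63, KRT5, COL1A2, DCN, PTPRC, CD3E and PECAM1, which mark basal, fibroblast, leukocyte and endothelial cells, were below 0.1 RPKM in every siRNA library. COL1A1 led the fibroblast list, whose sum was 10.4 to 16.4 RPKM. CD68 led the leukocyte list, whose sum was 3.54 to 12.2 RPKM. In bulk RNA, fewer cells of a kind and less RNA per cell cannot be told apart.

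Compared per gene length in siControl cells with vehicle, the mean levels ran from 794 RPKM for OAZ1 down to 2.82 RPKM for SMOX. AMD1 (190 RPKM) and ODC1 (160 RPKM) followed OAZ1, then OAZ2 (96.7), SRM (89.5), SAT1 (71.1), AZIN1 (54.2), SMS (24.4) and PAOX (3.89). The ranges of the 3 libraries did not overlap between any neighbours in this order, although OAZ2 (93.8 to 98.8 RPKM) and SRM (83.5 to 93.5 RPKM) came close. SMS lay above 87.7% of the genes listed in the siRNA tables, and the members ranked before it lay above more. PAOX and SMOX lay above 59.8% and 56.3%. The shares of all genes set beside the members below were not matched for level. SMOX and PAOX were also the shallowest in the ligand tables, with 70 to 294 and 60 to 226 estimated counts per deposited column, against at least 951 for each of the other members. Whether counting used strand is not given in the sources used here, and several members overlap other annotated genes. PAOX overlaps AL360181.3 on its own strand, OAZ1 overlaps JSRP1 and AC005258.1, AZIN1 and OAZ2 each overlap 3 genes on the opposite strand, and ODC1 hosts SNORA80B. AMD1 has 4 and SRM 2 annotated pseudogenes named after them, which can share reads with the parent genes.

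RefSeq promoter windows (GRCh38.p14, from 250 bases before the start site to 50 bases after it) were found for 7 of the members, in 10 windows, and are given because several members moved together below. Each window was searched on both strands for the E-box CACGTG (the site of MYC and related factors), for a GATA hexamer (AGATAA first, then its variant AGATAG, and the same with T as the first base, TGATAA followed by its variant TGATAG), and for the androgen receptor half-site AGAACA. The E-box was in 2 of the 10 windows of the members, 1 of ODC1 and 1 of SRM, and in 7.26% of all 35116 windows. The GATA hexamers (25% of all windows) and the half-site (14.8%) were in none of the members' windows, which speaks only of these letters in these windows. The windows of ODC1 (chr2:10447963-10448262, minus strand) and SRM (chr1:11059969-11060268, minus strand) are shown because they hold the E-box, in capitals, and that of SAT1 (chrX:23782923-23783222, plus strand) because SAT1 had the largest change of the members in the siRNA experiment. All read 5′ to 3′ along the gene, and the window of SAT1 holds none of the motifs.
ODC1: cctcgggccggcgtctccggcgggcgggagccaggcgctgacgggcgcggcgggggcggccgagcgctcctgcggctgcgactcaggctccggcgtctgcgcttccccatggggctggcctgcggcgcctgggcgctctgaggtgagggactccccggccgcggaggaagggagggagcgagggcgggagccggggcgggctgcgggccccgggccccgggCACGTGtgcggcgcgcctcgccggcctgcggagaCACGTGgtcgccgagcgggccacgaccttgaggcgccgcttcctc
SRM: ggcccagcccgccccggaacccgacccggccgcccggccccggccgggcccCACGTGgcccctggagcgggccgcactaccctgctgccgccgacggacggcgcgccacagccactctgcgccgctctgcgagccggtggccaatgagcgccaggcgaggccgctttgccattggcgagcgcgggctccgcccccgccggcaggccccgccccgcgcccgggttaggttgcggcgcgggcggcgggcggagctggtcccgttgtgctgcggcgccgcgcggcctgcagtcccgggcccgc
SAT1: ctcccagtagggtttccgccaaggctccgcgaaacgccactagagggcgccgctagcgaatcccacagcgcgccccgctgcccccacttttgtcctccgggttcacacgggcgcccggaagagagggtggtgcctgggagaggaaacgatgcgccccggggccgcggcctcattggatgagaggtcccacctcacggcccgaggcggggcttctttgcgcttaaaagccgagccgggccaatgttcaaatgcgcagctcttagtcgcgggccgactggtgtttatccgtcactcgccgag
In the ODC1 window shown, the E-boxes begin 29 bases before the start site of that window and 5 bases after it. In SRM the E-box begins 199 bases before the start site. The other RefSeq window of ODC1 has none.

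The first question was what enzalutamide alone did to these genes. A gene was called when its two-sided p, adjusted by Benjamini-Hochberg over all 15555 genes tested with the quasi-likelihood test of edgeR, was below 0.05. Enzalutamide lowered synthesis genes, AMD1 and SRM at 4 h and AMD1, SRM and SMS at 24 h, by 1.15- to 1.31-fold, and after 24 h SAT1 had risen 1.31-fold. ODC1 itself and the antizymes were not called at either time. At 4 h, 2 of the 10 members fell, against 6.68% of all genes, and 0 rose, against 6.94% (2 members were higher at an unadjusted p below 0.05, and DESeq2 also called 0 higher). At 24 h, 3 fell, against 17.0% of all genes, and 2 rose, against 16.4%. No call exceeded 2-fold. The median log2 fold change of the members was -0.01 at 24 h, beside 0.01 over all genes tested.

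AMD1, the gene for the decarboxylase that supplies aminopropyl groups, read 928 and 888 CPM with vehicle, 694 and 756 CPM after 4 h of enzalutamide and 698 and 687 CPM after 24 h. Both times lay below vehicle without overlap, with log2 fold changes of -0.33 ± 0.04 (SE, adjusted p = 0.00029) and -0.39 ± 0.04 (adjusted p = 1.0e-05). SRM, the spermidine synthase, went from 136 and 138 CPM to 124 and 115 CPM at 4 h and to 108 and 102 CPM at 24 h. Its fall of 0.20 ± 0.04 at 4 h (adjusted p = 0.011) was smaller than that of 0.38 ± 0.04 at 24 h (adjusted p = 2.5e-05). The call of SRM at 4 h was lost without enzalutamide replicate 2 (log2 difference -0.15) and without vehicle replicate 2 (-0.19). It was also lost against vehicle of the same sequencing set alone, where 1 vehicle column was left and the value was -0.19. A sequencing set here is the set of columns that share a prefix (ZC1, ZC2 or ZC3) in the deposited tables, and what the prefix stands for is not given in the sources used here. SMS, the spermine synthase, read 108 and 111 CPM with vehicle and 107 and 107 CPM at 4 h, a log2 difference of -0.03 with a 95% interval from -0.11 to 0.04. After 24 h it read 91.1 and 91.7 CPM, 1.20-fold lower (adjusted p = 9.5e-05). ODC1, the entry enzyme, stayed between 576 and 637 CPM over all vehicle and enzalutamide libraries, and its log2 difference from vehicle was 0.06 at 4 h (adjusted p = 0.25) and -0.07 at 24 h (adjusted p = 0.11).

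Among the catabolic genes, SAT1 read 48.8 and 49.2 CPM with vehicle, 54.8 and 54.2 CPM at 4 h and 62.3 and 65.9 CPM at 24 h. The 24 h libraries were above all others of these groups, and the rise of 0.39 ± 0.05 on the log2 scale was called (adjusted p = 3.5e-05), while that of 0.15 at 4 h missed the threshold (adjusted p = 0.0503). SMOX was thinly covered, at 4.13 and 5.23 CPM with vehicle and 5.80 and 5.83 CPM at 24 h of enzalutamide, with an uncalled log2 difference of 0.18 at 4 h. Its log2 fold change of 0.33 at 24 h ± 0.12 was called (adjusted p = 0.044), but the call was lost with DESeq2 (0.184), which left SAT1 as the 1 member that rose, with RLE size factors (0.0558), and on leaving out any DHT library, either 24 h enzalutamide library or vehicle replicate 1 (0.0571 to 0.418). Without vehicle replicate 1 the value of SMOX was 0.14, and against vehicle of the same sequencing set it was 0.71. PAOX read 3.45 and 4.34 CPM with vehicle, 3.36 and 3.16 CPM at 4 h and 4.46 and 4.56 CPM at 24 h, and was not called at either time. The regulators moved little. The log2 differences of OAZ1 and OAZ2 from vehicle were between -0.06 and 0.04, and AZIN1 was at 0.12 at both times (adjusted p = 0.16 and 0.11), passing the threshold at both (0.0145 and 0.0398) without enzalutamide 4 h replicate 1. The summed endothelial markers went from between 15.6 and 16.4 CPM with vehicle to between 8.45 and 9.01 CPM at 24 h of enzalutamide, and the part of this in the members' changes was not tested.

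**Figure D1:**
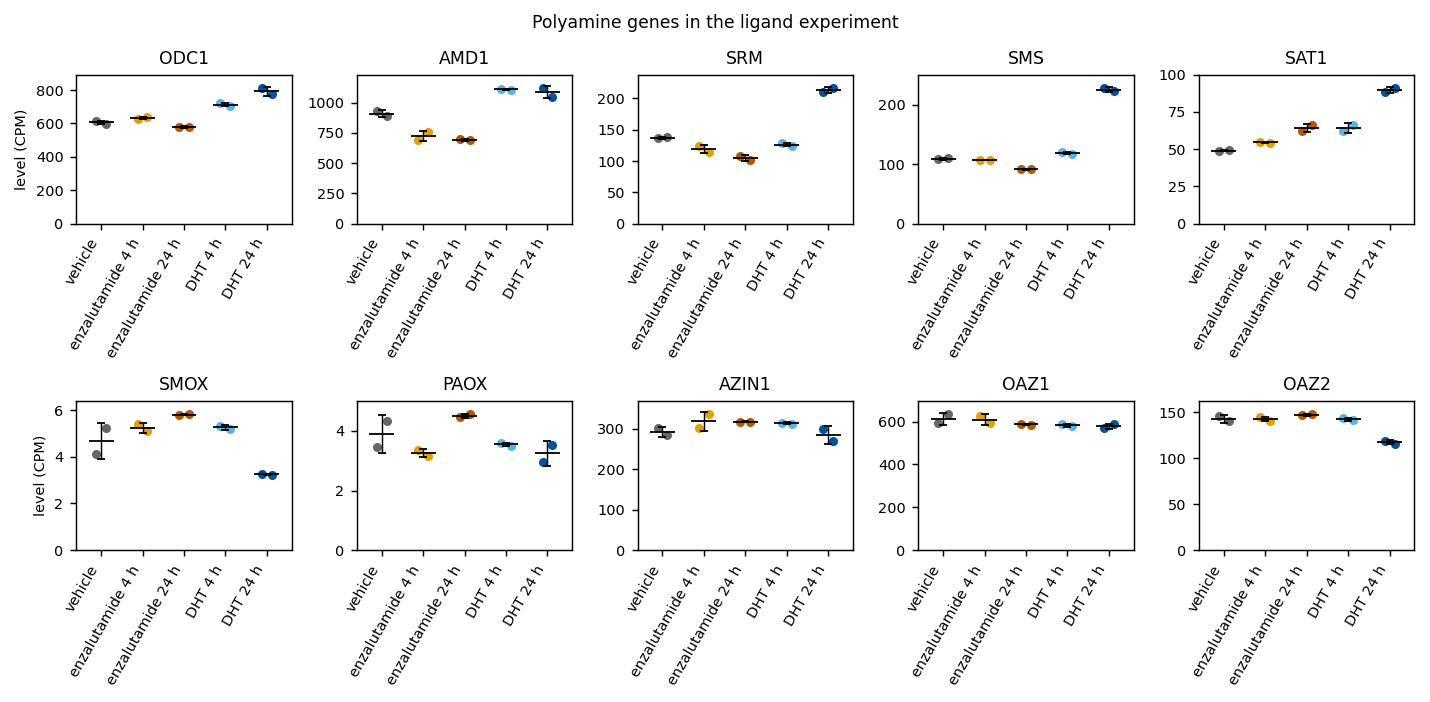
Level in CPM of each polyamine gene in each ligand library (points), with the mean (horizontal bar) and SD of the 2 libraries (error bar). SMS rises from 108 and 111 CPM with vehicle to 228 and 222 CPM after 24 h of DHT, SAT1 is lowest with vehicle, and SMOX and PAOX lie under 6 CPM throughout.

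After 24 h, DHT raised all of the synthesis genes, SMS by 2.06-fold, SRM by 1.55-fold, ODC1 by 1.31-fold and AMD1 by 1.19-fold, and it raised SAT1 by 1.83-fold. SMOX and OAZ2 fell. At 4 h, 3 members rose (ODC1, AMD1 and SAT1), against 4.66% of all genes, and 0 fell, against 2.11% (1 member was lower at an unadjusted p below 0.05, and DESeq2 also called 0 lower). At 24 h, 5 rose, against 26.9% of all genes, 2 fell, against 23.2%, and 1, SMS, changed more than 2-fold. The median log2 fold change of the members was 0.11 at both times, beside -0.01 at 4 h and 0.00 at 24 h over all genes tested. The sums of the marker genes of other cell types, measured in this 1 cell line, moved as well at 24 h. The leukocyte sum (CD68) went from between 1.40 and 1.47 CPM with vehicle to between 2.80 and 2.84 CPM, the fibroblast sum, led by COL1A1, from between 25.7 and 26.1 CPM to between 15.3 and 17.3 CPM, and the endothelial sum from between 15.6 and 16.4 CPM to between 20.6 and 21.4 CPM. Their part in the members' changes was not tested.

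ODC1 read 614 and 599 CPM with vehicle, 720 and 707 CPM at 4 h and 812 and 775 CPM at 24 h of DHT, so that the 3 conditions did not overlap. Its log2 fold changes were 0.23 ± 0.03 (adjusted p = 0.00026) and 0.39 ± 0.03 (adjusted p = 3.4e-07). AMD1 was at 1108 and 1107 CPM at 4 h and at 1119 and 1049 CPM at 24 h, above vehicle at both times by 0.29 and 0.26 on the log2 scale. SMS and SRM moved late. SMS read 120 and 117 CPM at 4 h, a difference of 0.12 that missed the threshold (adjusted p = 0.068) and passed it without either 4 h enzalutamide library (0.0381 and 0.0366), and 228 and 222 CPM at 24 h (log2 fold change 1.04 ± 0.04, adjusted p = 8.5e-11). SRM was at 128 and 125 CPM at 4 h, slightly below vehicle with a log2 difference of -0.12 (adjusted p = 0.16), and at 210 and 216 CPM at 24 h (0.64 ± 0.04, adjusted p = 7.6e-08).

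SAT1, the acetyltransferase, was higher at both times of DHT, at 62.0 and 66.4 CPM at 4 h and at 88.4 and 91.0 CPM at 24 h. These gave log2 fold changes of 0.39 ± 0.05 (adjusted p = 0.00011) and 0.87 ± 0.05 (adjusted p = 8.3e-09). SMOX, the spermine oxidase, read 5.34 and 5.20 CPM at 4 h and 3.26 and 3.24 CPM at 24 h, where its log2 fold change of -0.51 ± 0.12 was called (adjusted p = 0.0042). Against vehicle columns of the same sequencing sets alone, all of which came from vehicle replicate 1, the value of SMOX was -0.22 and the call was lost (adjusted p = 0.23). Vehicle replicate 1 has a column in every sequencing set, so the set could also be fitted as a term, with the 4 vehicle columns as separate samples. In that fit, chosen after seeing the data, the value of SMOX was -0.23 (adjusted p = 0.182). PAOX, at 2.95 and 3.54 CPM, was not called at 24 h (adjusted p = 0.14), and without vehicle replicate 1 it was (adjusted p = 0.041). OAZ2 fell from 146 and 140 CPM to 119 and 116 CPM at 24 h, 1.22-fold lower (adjusted p = 2.2e-05), with 143 and 141 CPM at 4 h. OAZ1 had a log2 difference of -0.09 at 24 h (adjusted p = 0.080), which passed the threshold without vehicle replicate 1 (0.0236) or without either 4 h enzalutamide library (0.0433 and 0.0403), and AZIN1 had one of -0.04 (adjusted p = 0.61). At 4 h the log2 differences of AZIN1 (0.10), OAZ1 (-0.07), OAZ2 (-0.01), PAOX (-0.12) and SMOX (0.19) were not called. Within sequencing sets the 24 h values of SMS (1.05), SRM (0.65), ODC1 (0.38), AMD1 (0.22) and SAT1 (0.86) kept their calls.

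**Figure D2:**
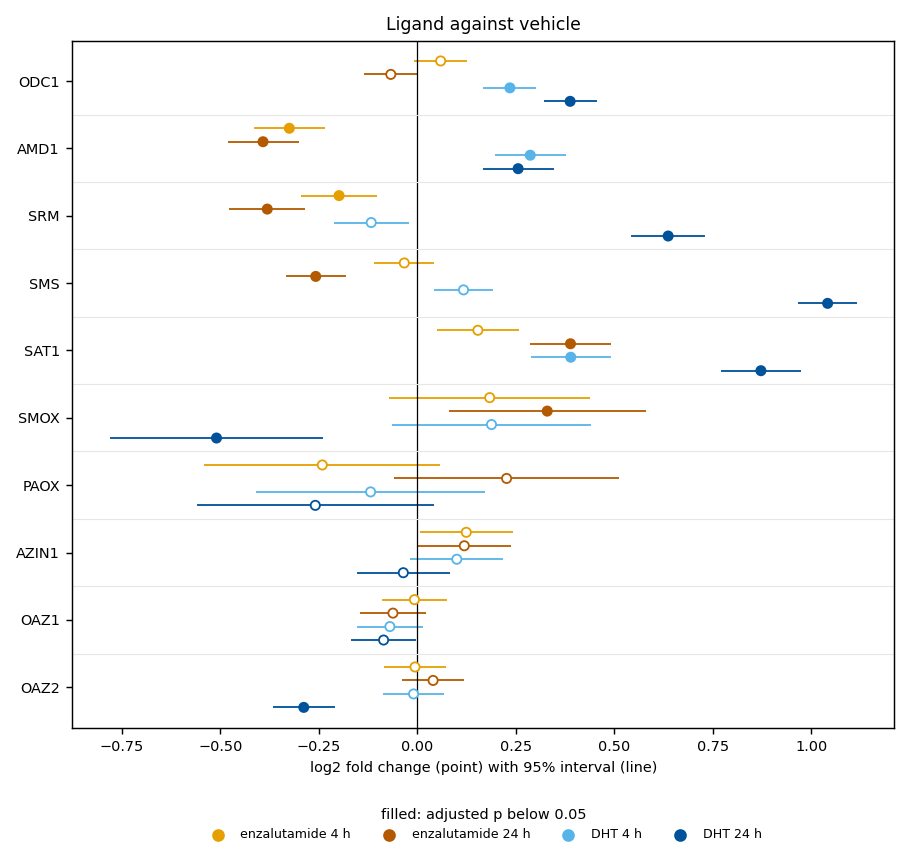
Log2 fold change of each polyamine gene against vehicle (points, filled when the adjusted p is below 0.05) with its 95% interval (lines) for enzalutamide and DHT at 4 and 24 h. SMS, SRM and AMD1 lie right of 0 after 24 h of DHT and left of 0 after 24 h of enzalutamide, and SAT1 lies right of 0 in both. All points share the same vehicle libraries.

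The ligand-to-vehicle comparisons share the vehicle libraries, so the direct contrast of the ligands carries the comparison between them. At 4 h, 4 members were higher with DHT than with enzalutamide and 0 were lower, against 15.8% of all genes called in either direction (0 members were lower at an unadjusted p below 0.05, and DESeq2 called 0 lower). These were AMD1 (log2 difference 0.61 ± 0.04, adjusted p = 3.2e-07), SAT1 (0.24), ODC1 (0.18) and SMS (0.15). The call of SMS was lost without DHT 4 h replicate 1 (adjusted p = 0.102) and that of SAT1 without DHT 4 h replicate 2 (0.0633). The 4 h libraries of each ligand came from different sequencing sets. With the set as a term, 2 members were called, AMD1 (0.67, adjusted p = 6.1e-06) and ODC1 (0.20, adjusted p = 0.014), while SAT1 (0.26, adjusted p = 0.066) and SMS (0.18, adjusted p = 0.068) missed the threshold. SRM (0.08), PAOX (0.12), SMOX (0.00), AZIN1 (-0.02), OAZ1 (-0.06) and OAZ2 (0.00) were not called at 4 h in either fit. At 24 h, 9 members differed, against 64.9% of all genes, and 2 of them, SMS and SRM, by more than 2-fold. SMS was 2.46-fold, SRM 2.02-fold, AMD1 1.57-fold, SAT1 1.40-fold and ODC1 1.37-fold higher with DHT. DHT 24 h replicate 2 shared a sequencing set with both enzalutamide 24 h libraries, and it read 222 CPM for SMS, against 91.1 and 91.7, and 216 CPM for SRM, against 108 and 102. SMOX was 1.79-fold, PAOX 1.40-fold, OAZ2 1.26-fold and AZIN1 1.11-fold lower with DHT. The call of PAOX was lost without DHT 24 h replicate 1 (adjusted p = 0.103). That of AZIN1 was lost without DHT 24 h replicate 2 (0.319, with a log2 difference of -0.07) or either enzalutamide 24 h library (0.115 and 0.105), and with RLE size factors (0.0535). With the sequencing set as a term all 9 members kept their calls. OAZ1 was the member not called, with a log2 difference of -0.02 and a 95% interval from -0.11 to 0.06.

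Comparing the times within a ligand, 5 members differed between 4 and 24 h of enzalutamide, against 24.6% of all genes, and 6 between 4 and 24 h of DHT, against 49.8%. SMS was 1.17-fold lower at 24 h than at 4 h of enzalutamide (adjusted p = 0.00048), and this call was kept without any 1 library. SRM (log2 difference -0.18), ODC1 (-0.13), SAT1 (0.23) and PAOX (0.47) were also called. Each of these calls was lost without at least 1 library. Without enzalutamide 24 h replicate 2, SMS was the only called member among those 5, and the adjusted p was 0.109 for SRM, 0.0524 for ODC1, 0.0544 for SAT1 and 0.118 for PAOX. Without enzalutamide 24 h replicate 1 it was 0.0719 for ODC1 and 0.096 for PAOX, without enzalutamide 4 h replicate 1 it was 0.0539 for SRM, and without enzalutamide 4 h replicate 2 it was 0.103 for PAOX, whose call was also lost with DESeq2 (0.0876). The 2 libraries of enzalutamide at 4 h stood furthest apart of any ligand pair, with a mean chi-square per gene of 9.82 against 2.03 to 4.57 for the other pairs of replicates. With DHT, SMS rose by 0.92 ± 0.03, SRM by 0.75 ± 0.04, SAT1 by 0.48 ± 0.05 and ODC1 by 0.15 ± 0.03 from 4 to 24 h on the log2 scale, while SMOX fell by 0.70 ± 0.12 and OAZ2 fell by 0.28 ± 0.04. AMD1 was not called between the times of enzalutamide unless its 4 h replicate 1 was left out (adjusted p = 0.0284), and SMOX (0.15), AZIN1 (-0.01), OAZ1 (-0.05) and OAZ2 (0.05) were not called there either. Between the times of DHT, AZIN1 (-0.14) missed the threshold (adjusted p = 0.054) but passed it with DESeq2 (0.042), without the filter on low counts (0.00103), with the vehicle columns as separate samples (0.0208) and without DHT 24 h replicate 1 (0.00973) or either 4 h enzalutamide library (0.0155 and 0.0143). AMD1 (-0.03), PAOX (-0.14) and OAZ1 (-0.02) were not called between the times of DHT. The 4 h and 24 h libraries of each ligand came from different sequencing sets. The fit with the set as a term again counts the 4 vehicle columns as separate samples. With the set as a term, SMS (0.91), SRM (0.75), SAT1 (0.45), ODC1 (0.14) and OAZ2 (-0.32) kept their calls between the times of DHT, AZIN1 gained one (-0.21, adjusted p = 0.034) and SMOX lost its call (-0.30, adjusted p = 0.196). Between the times of enzalutamide, SMS (-0.19, adjusted p = 0.025) and SRM (-0.21, adjusted p = 0.044) kept their calls in that fit, and those of ODC1 (0.137), SAT1 (0.0588) and PAOX (0.255) were lost.

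The siRNA experiment asked how GATA2 silencing changed the response to enzalutamide. Here limma was run on log2(RPKM + 0.1) over 20369 genes, and fold changes are on that scale, which understates those of low genes such as SMOX and PAOX. In siControl cells, 25 μM enzalutamide raised the catabolic genes SAT1, SMOX and PAOX together with AZIN1 and lowered the synthesis genes ODC1, AMD1, SRM and SMS. These 4 rises stood against 17.7% of all genes and the 4 falls against 24.4%. With TMM factors applied to the RPKM values, 4723 of the 20369 genes rose and 3963 fell. Rises were then 54.4% of all calls in this comparison, against 42.1% as deposited, and 7 of the 10 members were called.

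SAT1 changed most, from 71.0, 69.8 and 72.5 RPKM to 128, 129 and 134 RPKM, a log2 fold change of 0.87 ± 0.05 (1.83-fold, adjusted p = 5.0e-07). All enzalutamide libraries were far above all vehicle libraries. The leukocyte sum was between 4.59 and 5.33 RPKM in these libraries, against 3.54 to 3.84 RPKM with vehicle. The fibroblast sum was between 12.5 and 13.8 RPKM, against 10.45 to 11.4 RPKM with vehicle. The endothelial sum was between 0.37 and 0.50 RPKM, against 0.93 to 0.99 RPKM, and the luminal sum between 1011 and 1065 RPKM, against 1629 to 1701 RPKM. The part of these sums in the result was not tested. SMOX rose from 2.88, 2.85 and 2.72 RPKM to 3.54, 3.74 and 3.48 RPKM (0.34 ± 0.07, adjusted p = 0.0043). PAOX rose from 3.82, 3.71 and 4.14 RPKM to 4.56, 4.83 and 4.88 RPKM (0.28 ± 0.07, adjusted p = 0.0075). Neither gene overlapped between the groups. SRM fell from 91.5, 83.5 and 93.5 RPKM to 68.6, 68.5 and 66.4 RPKM (1.32-fold lower, adjusted p = 0.00019). ODC1 fell from 157, 165 and 158 RPKM to 138, 133 and 133 RPKM (1.19-fold lower, adjusted p = 0.00074). AMD1 fell from 189, 192 and 189 RPKM to 165, 153 and 165 RPKM (1.18-fold lower, adjusted p = 0.00031). SRM, ODC1, AMD1 and SMS did not overlap between the groups, which was not counted over all genes. Lack of overlap also occurs without a call. At 24 h of enzalutamide in the ligand experiment all 10 members lacked overlap with vehicle, and 5 were not called. SMS went from 24.4, 23.5 and 25.1 RPKM to 22.4, 21.5 and 21.9 RPKM (1.11-fold lower, adjusted p = 0.0049), and with TMM factors its call was lost (log2 fold change -0.09, adjusted p = 0.0593). The rise of AZIN1, 0.08 ± 0.03 (adjusted p = 0.041), was the smallest called. It was lost without siControl vehicle replicate 1 or 3, without any siControl enzalutamide library, without siGATA2 vehicle replicate 2 and without siGATA2 enzalutamide replicate 3, with adjusted p from 0.0513 to 0.123, and under the replicate block (0.0671). With TMM factors it was 0.14. The antizymes OAZ1 (0.07, adjusted p = 0.35) and OAZ2 (-0.08, adjusted p = 0.095) were not called.

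**Figure D3:**
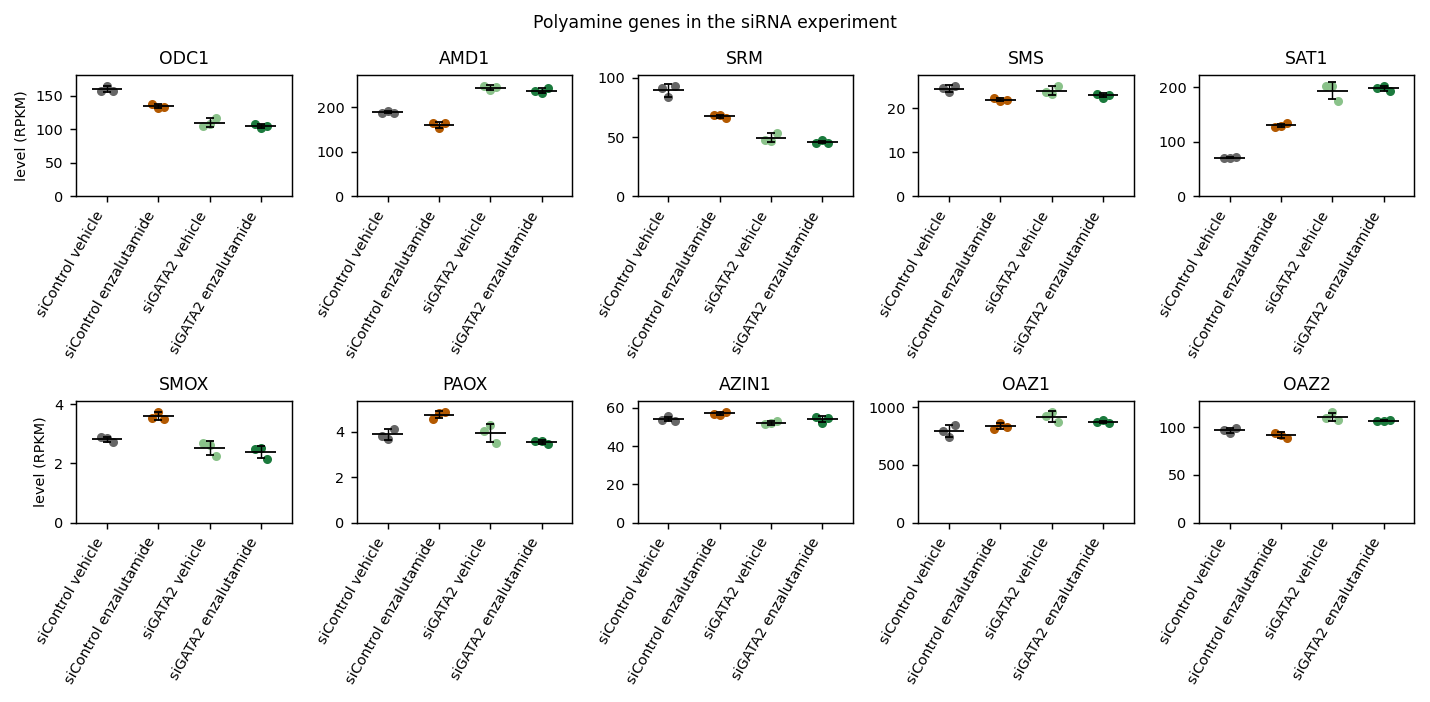
Level in RPKM of each polyamine gene in each siRNA library (points), with the mean (horizontal bar) and SD of the 3 libraries (error bar). SAT1 steps up from about 71 RPKM in siControl cells with vehicle to 128 to 134 RPKM with enzalutamide and to at least 176 RPKM in siGATA2 cells, whereas ODC1 and SRM step down over the same groups.

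GATA2 silencing by itself, in cells with vehicle, raised SAT1 2.71-fold and AMD1 1.29-fold and lowered SRM 1.81-fold and ODC1 1.45-fold. In all, 4 members rose (SAT1, AMD1, OAZ1 and OAZ2), against 24.2% of all genes, and 2 fell (SRM and ODC1), against 31.4%. SAT1 was the 1 member past 2-fold. It read 202, 203 and 176 RPKM in siGATA2 cells against 71.0, 69.8 and 72.5 RPKM in siControl cells, 2.71-fold higher (log2 1.44 ± 0.05, adjusted p = 3.9e-09). Every marker sum listed here differed too. The leukocyte sum, almost all of it CD68, went from between 3.54 and 3.84 RPKM in siControl cells to between 10.5 and 12.2 RPKM in siGATA2 cells. PTPRC and CD3E were below 0.1 RPKM in every library. The fibroblast sum went from between 10.45 and 11.4 RPKM to between 12.8 and 16.35 RPKM. The endothelial sum rose from at most 0.99 to at least 1.25 RPKM, and the luminal sum fell from between 1629 and 1701 RPKM to between 919 and 933 RPKM. Their part in the members' changes was not tested. SRM read 47.5, 47.0 and 53.7 RPKM, 1.81-fold below siControl (adjusted p = 2.6e-07). ODC1 read 105, 109 and 117 RPKM, 1.45-fold below siControl (adjusted p = 1.3e-06).

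AMD1 went the other way from ODC1 and SRM. It was at 249, 239 and 246 RPKM in siGATA2 cells, 1.29-fold above siControl (adjusted p = 6.4e-06), without overlap. The antizymes were also higher in siGATA2 cells, OAZ1 at 927, 959 and 873 RPKM (0.21 ± 0.06 on the log2 scale, adjusted p = 0.0097) and OAZ2 at 109, 116 and 108 RPKM (0.20 ± 0.03, adjusted p = 0.00051). SMS read 23.6, 23.1 and 25.1 RPKM, with a log2 difference of -0.03 and a 95% interval from -0.10 to 0.05. With TMM factors this uncalled difference was 0.02. PAOX (0.01, 95% interval from -0.14 to 0.17) and AZIN1 (-0.05) were not called. SMOX had a log2 difference of -0.16 (adjusted p = 0.10), which the replicate block brought past the threshold (0.0331). Replicate 3 of siGATA2 with vehicle departed most from the other libraries of its group (SD of log2 differences 0.148, against 0.0971 to 0.124 in the others), and it was the lowest for SAT1 and the highest for ODC1 and SRM. The 6 calls held without it.

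In siGATA2 cells 0 of the 10 members were called between enzalutamide and vehicle. Few genes were called at all there, as 0.221% of all genes rose and 0.191% fell. At an unadjusted p below 0.05 limma also had 0 members higher and 0 lower. SAT1 read 199, 203 and 193 RPKM with enzalutamide against 202, 203 and 176 RPKM with vehicle, a log2 difference of 0.04 with a 95% interval from -0.07 to 0.15. SRM read 45.5, 47.2 and 45.1 RPKM, with a difference of -0.10 and an interval from -0.22 to 0.02. ODC1 read 108, 102 and 105 RPKM, with a difference of -0.07 and an interval from -0.16 to 0.02. The other members had differences of -0.04 (AMD1), -0.06 (SMS), -0.08 (SMOX), -0.14 (PAOX), 0.05 (AZIN1), -0.07 (OAZ1) and -0.05 (OAZ2), and each 95% interval included 0. The upper bound for SAT1 is below the rise of 0.87 seen in siControl cells.

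The difference between these responses was tested as an interaction, the response in siGATA2 cells minus that in siControl cells, and 6 members passed, against 25.8% of all genes. With TMM factors, 46.1% of all calls of the interaction were positive, against 58.0% as deposited. SAT1 had an interaction of -0.83 ± 0.07 (adjusted p = 2.7e-05), PAOX of -0.42 ± 0.10 (adjusted p = 0.010), SMOX of -0.42 ± 0.11 (adjusted p = 0.016), SRM of 0.30 ± 0.08 (adjusted p = 0.017) and AMD1 of 0.20 ± 0.05 (adjusted p = 0.016). ODC1 had an interaction of 0.18 ± 0.06 (adjusted p = 0.047). With TMM factors the calls of AMD1 (0.15, adjusted p = 0.0521) and ODC1 (0.14, adjusted p = 0.122) were lost and 4 members passed. The call of ODC1 was also lost without the filter on low RPKM (0.053), without siGATA2 enzalutamide replicate 1 or 3, siGATA2 vehicle replicate 1 or 2, any siControl vehicle library or siControl enzalutamide replicate 2 or 3, with adjusted p from 0.0602 to 0.109, and under the replicate block (0.0832). SMS (0.09), AZIN1 (-0.02), OAZ1 (-0.15) and OAZ2 (0.02, or -0.02 with TMM factors) did not pass.

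**Figure D4:**
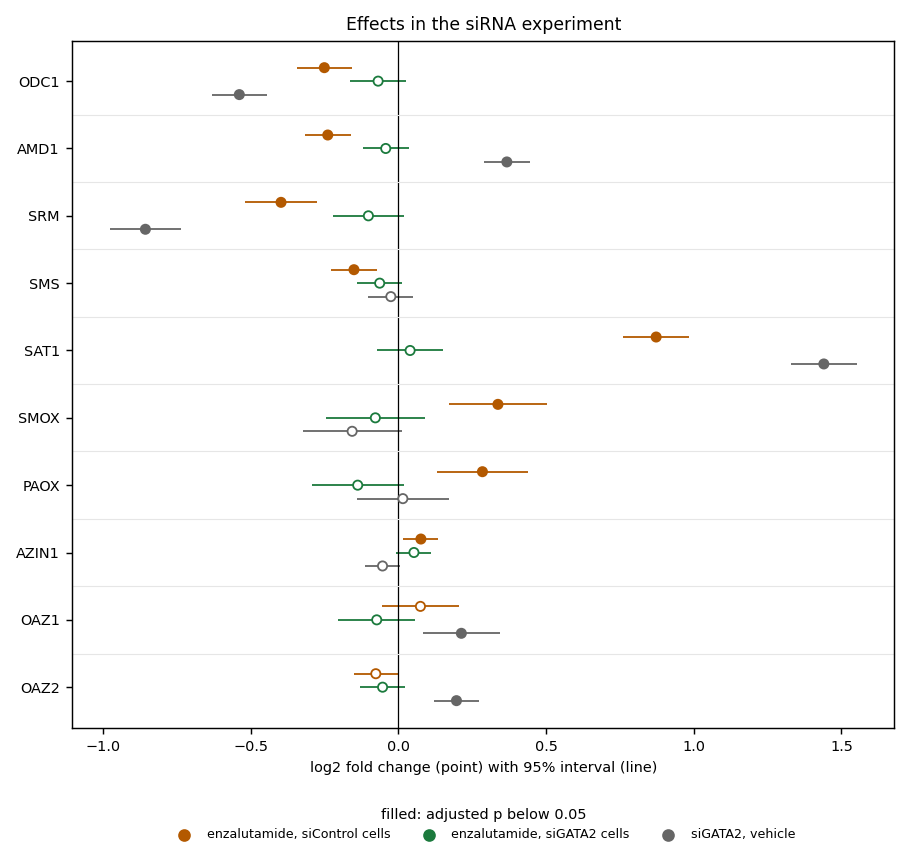
Log2 fold change of each polyamine gene (points, filled when the adjusted p is below 0.05) with its 95% interval (lines) for enzalutamide in siControl cells, enzalutamide in siGATA2 cells and siGATA2 against siControl in vehicle. The intervals of enzalutamide in siGATA2 cells all include 0, and SAT1 has the largest values of the other effects, 0.87 and 1.44.

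Under enzalutamide, siGATA2 cells were higher than siControl cells for 3 members, against 26.3% of all genes, and lower for 5, against 28.1%. SAT1 (1.52-fold), AMD1 (1.48-fold) and OAZ2 (1.16-fold) were higher. SMOX (1.49-fold), SRM (1.48-fold), PAOX (1.33-fold), ODC1 (1.28-fold) and AZIN1 (1.06-fold) were lower. SMOX read 2.47, 2.52 and 2.16 RPKM in siGATA2 cells, all below the siControl libraries, and PAOX read 3.59, 3.61 and 3.47 RPKM, also without overlap. AZIN1 lost its call without siGATA2 enzalutamide replicate 2 (adjusted p = 0.119), siControl enzalutamide replicate 1 (0.0614) or replicate 3 (0.0905). SMS had a log2 difference of 0.06 (adjusted p = 0.16). This passed with the replicate block in the enzalutamide libraries alone (0.0444), where the numbers were taken as pairs from the data and not from the labels. OAZ1 was not called (0.06, adjusted p = 0.39).

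The RNA of ODC1, which starts synthesis, was set against that of SAT1, which starts breakdown, as the ratio of their RPKM values. This ratio was taken in the siRNA libraries alone, and it does not measure enzyme activity or polyamines. The ratio was 2.25 ± 0.10 (SD, n = 3) in siControl cells with vehicle and 1.03 ± 0.04 with enzalutamide, and it was 0.574 ± 0.081 and 0.530 ± 0.024 in siGATA2 cells. The siControl groups did not overlap with each other or with the siGATA2 groups, whereas the siGATA2 groups overlapped, at 0.519 to 0.667 with vehicle and 0.501 to 0.544 with enzalutamide. No test was run on the ratio, which restates the changes of its genes.

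**Figure D5:**
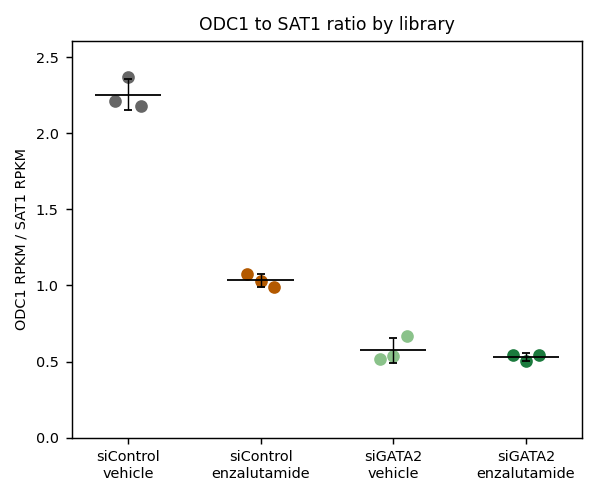
Ratio of ODC1 to SAT1 RPKM in each siRNA library (points), with the mean (horizontal bar) and SD of the 3 libraries (error bar). The ratio falls from 2.18 to 2.37 in siControl cells with vehicle to 0.992 to 1.08 with enzalutamide, and lies below 0.67 in all siGATA2 libraries.

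The effects of enzalutamide at 24 h can be set side by side for the experiments, but the dose was 10 μM in the ligand experiment and 25 μM in the siRNA experiment, the cells of the latter were transfected, and the units differ, so no comparison was made. SAT1 had a log2 fold change of 0.39 at 10 μM and 0.87 at 25 μM. The values were -0.38 and -0.40 for SRM, -0.39 and -0.24 for AMD1, -0.26 and -0.15 for SMS, and -0.07 and -0.25 for ODC1.

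Other genes of the pathway were taken from a list of 29, covering substrate supply, methylthioadenosine salvage, relatives of the members, hypusination and transport, of which 25 passed the filter in the ligand tables and 29 in the siRNA tables. After 24 h of DHT 13 of the 25 rose and 4 fell, beside 26.9% and 23.2% of all genes. The 5 genes that recycle methylthioadenosine, the by-product of SRM and SMS, all rose, APIP by 0.69 ± 0.06, MTAP by 0.54 ± 0.05, ENOPH1 by 0.39 ± 0.03, ADI1 by 0.28 ± 0.04 and MRI1 by 0.25 ± 0.07 on the log2 scale. MTAP, the phosphorylase that opens this route, read 52.2 to 56.7 CPM with vehicle and 78.7 to 80.1 CPM after 24 h of DHT. The call of MRI1 was lost without DHT 24 h replicate 2 (adjusted p = 0.059) or vehicle replicate 1 (0.0785). The same 5 genes were below siControl cells in siGATA2 cells with vehicle, ENOPH1 by -0.35, MTAP by -0.33, MRI1 by -0.23, APIP by -0.21 and ADI1 by -0.14, where 8 of the 29 listed genes rose and 14 fell, beside 24.2% and 31.4% of all genes. With TMM factors MAT2A, MAT2B, ADI1 and OAZ3 lost their falls, ADI1 with an adjusted p of 0.185. ADI1 also lost that call in most of the leave-one-out fits, among them those without siGATA2 vehicle replicate 1 (adjusted p = 0.161) or replicate 2 (0.14) and without any siControl vehicle library (0.0651 to 0.131).

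In the other comparisons enzalutamide raised 2 and lowered 3 of the 25 listed genes at 4 h, beside 6.94% and 6.68% of all genes, and raised 7 and lowered 4 at 24 h, beside 16.4% and 17.0%. At 4 h DHT raised 1 and lowered 0 (3 were lower at an unadjusted p below 0.05, and DESeq2 called 0 lower), beside 4.66% and 2.11% of all genes. In siControl cells 7 of the 29 rose with enzalutamide and 13 fell, beside 17.7% and 24.4% of all genes. With TMM factors 17 of the 29 were called, and MAT2B, ENOPH1, AOC1 and DOHH lost their falls. In siGATA2 cells 0 rose and 0 fell (2 and 2 at an unadjusted p below 0.05 in limma), beside 0.221% and 0.191% of all genes. The largest rise in siControl cells was that of SLC3A2, the heavy chain of amino acid exchangers that has also been linked to polyamine transport, from between 45.4 and 48.9 RPKM with vehicle to between 97.1 and 99.5 RPKM with enzalutamide (log2 fold change 1.05 ± 0.03, adjusted p = 1.2e-08). MAT2A, which makes the S-adenosylmethionine used by AMD1, fell there from between 45.4 and 49.7 RPKM to between 29.3 and 32.9 RPKM (-0.60 ± 0.08, adjusted p = 0.00018). EIF5A, the translation factor modified with a group taken from spermidine, fell from between 106 and 123 RPKM to between 80.8 and 88.3 RPKM.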

How the data were processed

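RNA-seq of LNCaP cells was taken as deposited, 24 samples with 24 columns of values, all of which were used. Per the study's methods and the submitters' processing notes, reads were aligned with TopHat2 2.0 (genome build hg19 per the labels) and quantified in Partek. For the ligand experiment the authors deposited estimated counts per gene, which were rounded to whole numbers here. Totals were 18778840 to 56454994 per column. The labels number 4 vehicle samples as biological replicates, but 3 of the 4 vehicle columns are named replicate 1, each with another column prefix (taken here as a sequencing set). These 3 were summed as 1 library from their names, so that 2 vehicle libraries entered. The mean chi-square per gene was 1.53 to 1.56 among them and 3.56 to 3.74 against replicate 2, but it grows with depth and was 2.03 for the deeper DHT 4 h pair and 2.29 for the enzalutamide 24 h pair, so it does not settle whether they were 1 library. The 2232 genes missing from 1 table had at most 61 counts and were set to 0 there. For the siRNA experiment the authors deposited RPKM values. File names speak of counts, but the values are not whole, so no count test was run. Depth is not given there; steps between low values of 15 genes put the 12 libraries within 1.28-fold of each other.

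Ligand counts were tested with the quasi-likelihood test of edgeR 4.0.16 (R 4.3.3), TMM factors and its filter on low counts, in 1 model of 5 conditions. RPKM values were tested with limma 3.58.1 (trended variance) on log2(RPKM + 0.1), with genes above 0 in 3 or more libraries kept, in 1 model of 4 conditions. Tests were two-sided, with Benjamini-Hochberg adjustment over all genes and a threshold of 0.05. The labels call the ligand replicates biological without saying whether they were separate cultures, so p-values measure only the spread between these samples. The fits were tested on simulated data with known fold changes. Alternatives were RLE factors, DESeq2 1.42.0, no filter on low values or one at 1 RPKM, pseudocounts of 1 and 0.01, TMM factors on RPKM, vehicle columns kept separate or taken from the same sequencing set, the set as a term (added after seeing the data), a replicate block, and leaving out each library.

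All members were named in every comparison, and other genes of the pathway list only where called. The members, the lists and the tests were chosen with earlier results of these data known. In the siRNA experiment, every same-numbered pair deviated together (correlation above 0.1) in 1 contrast, siGATA2 against siControl under enzalutamide (0.113, 0.241 and 0.148), so the numbers were taken as pairs there, from the data and not from the labels. With 2 libraries a condition the ligand numbers cannot be checked in this way, and their correlations ran from -0.176 to 0.143. Promoter windows came from RefSeq (GRCh38.p14), and overlapping genes from GENCODE 29 (GRCh38). Figures were drawn with matplotlib 3.10.9.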

Additional observations from a re-analysis of the deposited data

Results flagged for a closer look

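Differences between times or between siControl and siGATA2 cells that passed their own test stand out here. From 4 to 24 h of enzalutamide the log2 difference was 0.47 for PAOX, 0.23 for SAT1, -0.22 for SMS, -0.18 for SRM and -0.13 for ODC1. From 4 to 24 h of DHT it was 0.92 for SMS, 0.75 for SRM, 0.48 for SAT1, 0.15 for ODC1, -0.28 for OAZ2 and -0.70 for SMOX. The response to enzalutamide in siGATA2 cells minus that in siControl cells was -0.83 for SAT1, -0.42 for PAOX, -0.42 for SMOX, 0.30 for SRM, 0.20 for AMD1 and 0.18 for ODC1. The siGATA2 cells with vehicle already differed from siControl cells with vehicle by 1.44 for SAT1, -0.86 for SRM and -0.54 for ODC1, and whether these starting levels bear on the smaller responses was not tested. Groups of 2 or 3 libraries are too small for a test of single outlying samples.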

How the results depend on the processing

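Of 130 log2 fold changes of members, 69 were called, 52 of these kept the call under every alternative run, 17 lost it under at least 1, and 11 uncalled values gained one. These counts describe only how stable the calls were, since up to 64.9% of all genes were called in a comparison (DHT against enzalutamide at 24 h). No called value changed sign. The count of called members moved by more than 1.5 times in 3 comparisons. For enzalutamide at 4 h it was 2, became 4 without the filter on low counts and 1 within the sequencing set, and ran from 1 to 3 on leaving out each library. For enzalutamide at 24 h against 4 h it was 5, became 2 with the sequencing set as a term and ran from 1 to 5. For DHT against enzalutamide at 4 h it was 4 and became 2 with the set as a term. With the vehicle columns kept separate, the 3 columns named replicate 1 count as 3 samples. In that fit SAT1 at 4 h (adjusted p = 0.02) and ODC1 at 24 h of enzalutamide (0.0115) and SMS at 4 h of DHT (0.0126, or 0.0492 with the set as a term) were also called. Without the filter on low counts, SAT1 (0.0487) and AZIN1 (0.0245) at 4 h and AZIN1 at 24 h of enzalutamide (0.0242) and OAZ1 at 24 h of DHT (0.0306) were also called. For the other genes of the pathway, the count at 4 h of enzalutamide was 5 and became 8 with the vehicle columns kept separate (2 to 7 without single libraries), and that at 24 h was 11 (7 to 11). At 4 h of DHT it was 1, became 2 without the filter, within the sequencing set or with the set as a term and 3 with the vehicle columns separate (0 to 2), and between DHT and enzalutamide at 4 h it was 3 and became 5 without the filter (3 to 5). Leaving out 1 of 2 libraries assumes that the remaining library varies like the other groups. The replicate block changed no call of a member beyond those given with the siRNA results and that of SMOX at 24 h of enzalutamide (log2 fold change 0.33, adjusted p = 0.0553). Crossed numbers left the 4 members called between DHT and enzalutamide at 4 h at 4. This crossed pairing, the set term, which counts the vehicle columns as separate samples, and the block in the enzalutamide libraries alone were chosen after seeing the data. SMOX and PAOX, at 60 to 294 counts per column, are limited by depth.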
